A study of Drosophila melanogaster with 16 samples.

Results

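A set of 77 Drosophila melanogaster genes that carry only a CG number in the deposited table was higher in larvae after 16 h on a high-sugar diet (HSD) than in larvae on a low-sugar diet (LSD), and was near the LSD level after 4 h on HSD. The genes were chosen on these values: a symbol of CG plus digits, a mean normalised read count of 5 or more in at least 1 group, a mean of log2(value + 0.5) at HSD 16 h at least 0.8 above LSD, a mean at HSD 4 h within 0.4 of LSD, and a mean at HSD 8 h less than 1 above HSD 16 h. CG5724, CG1213, CG4607 and CG10960 were left out by name, and 0 of these 4 met the thresholds. The table held 10128 genes, of which 4434 had a CG-number symbol. Of these, 3806 reached a mean of 5, 266 were at least 0.8 higher at 16 h, and 77 were also within 0.4 of LSD at 4 h. The last threshold removed none.

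All libraries came from whole wild-type (WT) larvae. First instar larvae were held for 24 h at 25 °C on LSD, which is 10% yeast, and as early second instar larvae were moved to fresh food with 2% blue dye. The groups were HSD (10% yeast with 15% sucrose) at 4 h (n = 3), at 8 h (n = 3) and at 16 h (n = 4), and LSD (10% yeast) at 8 h (n = 4). The submitters marked 2 more libraries, replicate 2 of HSD 4 h and replicate 1 of HSD 8 h, as outliers they had removed, and neither was used here. LSD was sampled at 8 h alone, so at 4 h and at 16 h a difference of diet and one of larval age cannot be told apart. Between times within HSD, time on the diet and larval age cannot be told apart either. Whether replicates were separate cultures is not stated, so a p-value here weighs a difference against a spread between libraries that may be technical only. In whole larvae, more cells of a type and more RNA per cell cannot be told apart.

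A CG number is the name a fly gene holds from the genome annotation until it is named for a function or a mutant. Sugar in the fly is sensed inside cells by the transcription factor Mondo with its partner Mlx (bigmax), and the midgut, the fat body and the kidney-like tubules change their transcription with it. Second instar larvae also move through a molt cycle, in which the epidermis makes new cuticle in a fixed order of cuticle protein genes. Both processes run at the same time in growing larvae. For 6 of the 77 genes the annotation holds a later name: CG8129 is Srr (serine racemase), CG42235 is kumpel, CG4825 is Pss (phosphatidylserine synthase), CG17843 is Qsox2 (a sulfhydryl oxidase), and CG16885 and CG16884 are Vajk2 and Vajk3.

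The libraries held 16300308 to 25284073 reads, and 3 reads were worth between 0.117 and 0.182 on the normalised scale, depending on the library. Normalised read counts are not divided by gene length, so levels are compared between groups and not between genes. Some libraries stood apart in the cuticle gene TwdlJ, a member of the Tweedle family of cuticle proteins. TwdlJ had normalised read counts of 0.890, 0.414 and 0 at HSD 4 h, 35.9, 15.8 and 42.4 at HSD 8 h, 0, 12.5, 0 and 0.147 at HSD 16 h, and 0.938, 17.4, 33.6 and 0.727 in LSD (replicates in order of number). Replicates 2 and 3 of LSD and replicate 2 of HSD 16 h were therefore high in TwdlJ within their own groups, and all HSD 8 h libraries were high, so a match in molt stage between the groups at 8 h is not given by the design. These 3 libraries were set apart on TwdlJ alone, with earlier results known. LSD replicates 2 and 3 were also the highest of LSD in serp and kkv, genes of the cuticle and molt list. HSD 16 h replicate 2 was the highest of its group in kkv (202.5, others 114.5 to 172.9). In serp it lay within its group (393.9, others 333.7 to 444.5). Muscle markers, all 6 of which were measured, summed to between 28260 and 30630 at HSD 16 h and to between 33110 and 39820 in LSD. The 5 hemocyte markers summed to between 112.6 and 142.1 at HSD 16 h and to between 80.3 and 115.3 in LSD, the 5 neuron markers to between 540.4 and 664.6 at HSD 16 h and to between 606.5 and 770.0 in LSD. The 3 salivary gland markers in the table summed to between 46.4 and 49.7 at HSD 16 h and to between 45.7 and 51.1 in LSD. The table held 1 of 6 fat body markers, Lpin, at 135.4 to 148.5 at HSD 16 h and 107.4 to 144.2 in LSD, and 0 of 5 testis markers. The part of these cell types in the values of the 77 genes was not tested.

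At 16 h on HSD the 77 genes stood between 0.80 and 2.57 above LSD on the log2 scale, with a median of 1.04, against a median of -5e-04 over all 10114 genes tested. In 72 of the 77, every HSD 16 h library was above every LSD library. That pattern held in 18.4% of all genes tested, and since the rule asked for this difference, nothing is read from the count. The 5 genes with overlapping libraries were CG14566, CG13722, CG12480, CG42815 and CG3502. At 4 h, where the rule required a small difference, the median was 0.11, with a range from -0.38 to 0.40. The plot of all members by library splits them by the limma call at HSD 8 h. In the genes called, HSD 8 h was already above LSD. In many of those with no call, HSD 8 h was close to LSD on average and the libraries of one group differed widely. The sets overlap in their differences at 8 h, so they are not separate patterns. CG7567 had no call at a difference of 0.74, and CG31446 was called at 0.41.

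**Figure D1:**
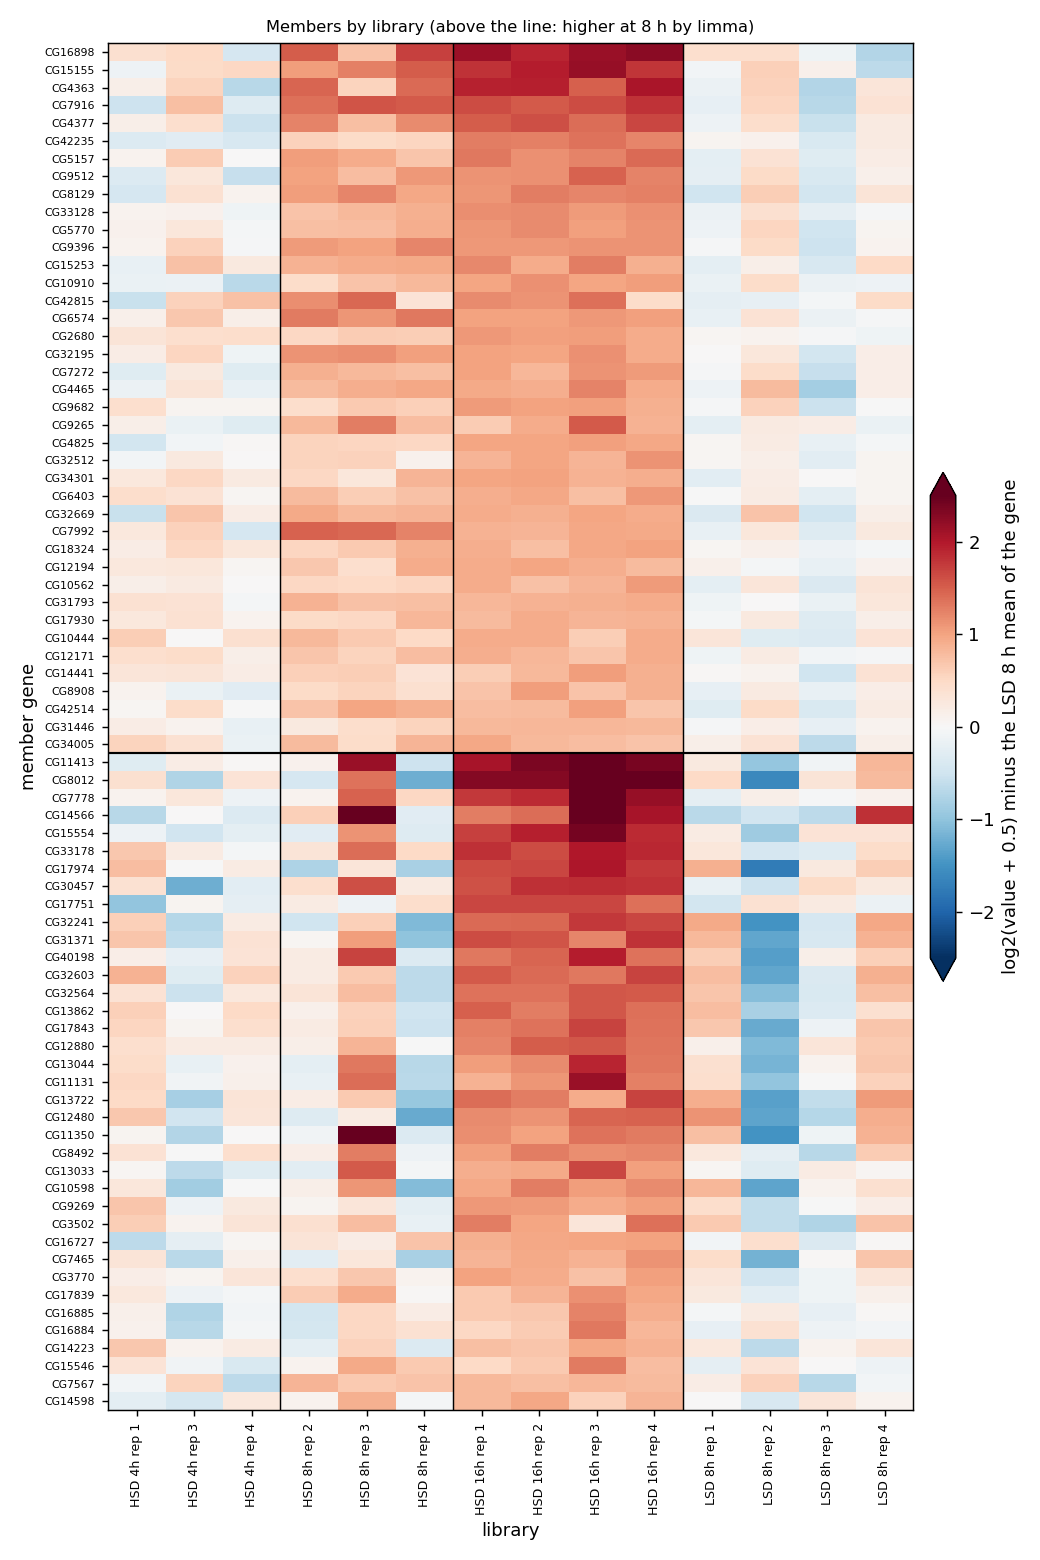
Each row is 1 of the 77 genes and each column 1 of the 14 libraries, grouped as HSD 4 h, HSD 8 h, HSD 16 h and LSD 8 h. Colour gives log2(value + 0.5) minus the mean of the gene in LSD, and the horizontal line separates the 40 genes higher at HSD 8 h by limma (above) from the 37 with no call. Below the line, LSD replicate 2 is mostly blue and HSD 8 h replicate 3 mostly red.

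At 8 h, HSD can be set against LSD with the time on the food matched, and this difference was not used to choose the genes. It shares the LSD libraries with the rule, which favours genes with a low LSD mean, and the rule sets an upper limit on HSD 8 h, so its p-values are not independent of the choice. By limma over all genes, with Benjamini-Hochberg adjustment and a threshold of 0.05, 40 of the 77 rose at HSD 8 h and 0 fell. Over all genes tested 17.5% rose and 16.9% fell. At an unadjusted p under 0.05, 46 of the 77 were higher and 0 lower, against 2243 higher and 2159 lower of all 10114 genes tested. By edgeR on the recovered reads 41 were higher and 0 lower, and by DESeq2 44 were higher and 0 lower. Over all genes tested, edgeR gave 1737 higher and 1715 lower, and DESeq2 1802 higher and 1590 lower. In 35 of the 77 every HSD 8 h library was above every LSD library, against 19.4% of all genes tested. The median difference of the 77 was 0.57, and that of all genes tested was -0.01. Without the 3 libraries that stood apart in TwdlJ, 33 of the same 40 genes were called higher.

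Within HSD, 22 of the 77 rose between 4 h and 8 h and 0 fell by limma, against 4.71% of all genes tested that rose and 4.50% that fell. All 22 were among the 40 that rose against LSD. The rule held HSD 4 h near an LSD mean that it required to be low against 16 h and limited HSD 8 h only from above, which favours a rise from 4 h, so these p-values and counts are not independent of the choice of genes either. At an unadjusted p under 0.05, 39 were higher at 8 h and 0 lower, against 1394 higher and 1275 lower of all 10114 genes tested. By edgeR 21 were higher and 0 lower, and by DESeq2 30 were higher and 0 lower. Over all genes tested, edgeR gave 439 higher and 439 lower, and DESeq2 675 higher and 455 lower. In 37 of the 77 all HSD 8 h libraries were above all HSD 4 h libraries, against 17.2% of all genes. The count of 22 varied with the libraries used. It was 7 without HSD 4 h replicate 4, 11 without HSD 4 h replicate 1 and 26 without HSD 4 h replicate 3. It was 10 without HSD 8 h replicate 2, 12 without HSD 8 h replicate 3 and 14 without HSD 8 h replicate 4. Over all genes tested, the 476 called higher became 170, 201, 534, 183, 191 and 234 in the same order, so the members moved with the whole table.

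The 40 genes that rose at 8 h stood 0.41 to 1.499 above LSD there, with a median of 0.81. The difference at 8 h was 75.3% of that at 16 h in the median gene of the 40, and 13.6% in the median gene of the other 37. From 8 h to 16 h the 40 genes moved by a median of 0.24 on the log2 scale, and 19 of them had all HSD 16 h libraries above all HSD 8 h libraries. The other 37 moved by a median of 1.08, with 22 of 37 free of overlap. Over all genes tested 21.7% showed that separation. The 40 genes are defined by the test of this same difference at 8 h, whose outcome also depends on the spread within LSD. A larger share at 8 h and a smaller step to 16 h are therefore partly set by the split, which is a description. The rule also asked for HSD 16 h to be high against LSD, which favours its separation from HSD 8 h.

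CG7916 had the largest difference at 8 h. Its normalised read counts were 12.8, 31.6 and 14.8 at HSD 4 h, 48.9, 56.5 and 55.0 at HSD 8 h, 58.3, 54.4, 58.4 and 66.5 at HSD 16 h, and 16.1, 27.2, 11.3 and 23.9 in LSD. All libraries at 8 h and 16 h on HSD lay above all others, and those at 8 h reached nearly the level of 16 h. The difference of HSD 8 h from LSD was 1.499 (SE 0.30, adjusted p = 0.00235, limma) on the log2 scale. CG9512 had a similar shape, with 54.9, 84.8 and 46.8 at HSD 4 h, 140.2, 118 and 148 at HSD 8 h, 152, 153, 195 and 165 at HSD 16 h, and 59.2, 96.5, 53.6 and 76.4 in LSD. Unlike in CG7916, all HSD 16 h libraries of CG9512 lay above those at 8 h. Its 8 h libraries on HSD were separate from LSD, with a difference of 0.95 (SE 0.22, adjusted p = 0.00475, limma).

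CG7992 and CG6574 were the only members whose HSD 8 h libraries all lay above their HSD 16 h libraries. CG7992 had 22.5, 28.2 and 13.9 at HSD 4 h, 52.6, 51.5 and 44.7 at HSD 8 h, 34.7, 34.1, 37.0 and 36.8 at HSD 16 h, and 16.3, 22.9, 14.8 and 22.1 in LSD. CG6574 had 22.6, 33.1 and 22.9 at HSD 4 h, 51.2, 45.0 and 51.8 at HSD 8 h, 41.7, 41.9, 44.0 and 42.4 at HSD 16 h, and 18.01, 26.7, 18.5 and 19.99 in LSD. Both peaked at 8 h among the times sampled and stayed above every LSD library at 16 h. Against LSD at 8 h, CG7992 rose by 1.38 (SE 0.20, adjusted p = 0.000277) and CG6574 by 1.24 (SE 0.14, adjusted p = 5.45e-05) by limma.

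CG15155 and CG16898 kept climbing. CG15155 had 9.40, 14.6 and 15.0 at HSD 4 h, 21.8, 25.6 and 30.6 at HSD 8 h, 37.3, 41.7, 48.5 and 36.8 at HSD 16 h, and 9.85, 15.9, 11.3 and 6.42 in LSD. Its HSD 16 h libraries lay above those at 8 h, and those at 8 h above all LSD libraries, with a difference at 8 h of 1.27 (SE 0.25, adjusted p = 0.00183, limma). CG16898 was a low gene, with 2.17, 2.36 and 1.02 at HSD 4 h, 5.34, 2.84 and 6.16 at HSD 8 h, 8.48, 7.05, 8.55 and 9.19 at HSD 16 h, and 2.23, 2.21, 1.38 and 0.727 in LSD. HSD 8 h replicate 3 was the lowest of its group and still above every LSD library, and the difference at 8 h was 1.32 (SE 0.31, adjusted p = 0.00642, limma).

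CG33128 was an abundant member with little spread on HSD. It had 351, 356 and 308 at HSD 4 h, 542, 585 and 615 at HSD 8 h, 742, 753, 699 and 735 at HSD 16 h, and 300.1, 439, 282 and 325 in LSD. The 3 levels (LSD with HSD 4 h, HSD 8 h, HSD 16 h) did not overlap, and the rise at 8 h was 0.80 (SE 0.12, adjusted p = 0.000347, limma). CG10910, another abundant member, had 165, 168.2 and 118 at HSD 4 h, 258, 306 and 327 at HSD 8 h, 372, 413, 371 and 384 at HSD 16 h, and in LSD 256 in replicate 2 and 166 to 170.0 in the others. LSD replicate 2 stood close to the lowest HSD 8 h library, and the rise at 8 h was 0.66 (SE 0.16, adjusted p = 0.00709, limma). The call was lost in 1 of 27 alternatives, the control of LSD replicates 2 and 3 alone.

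**Figure D2:**
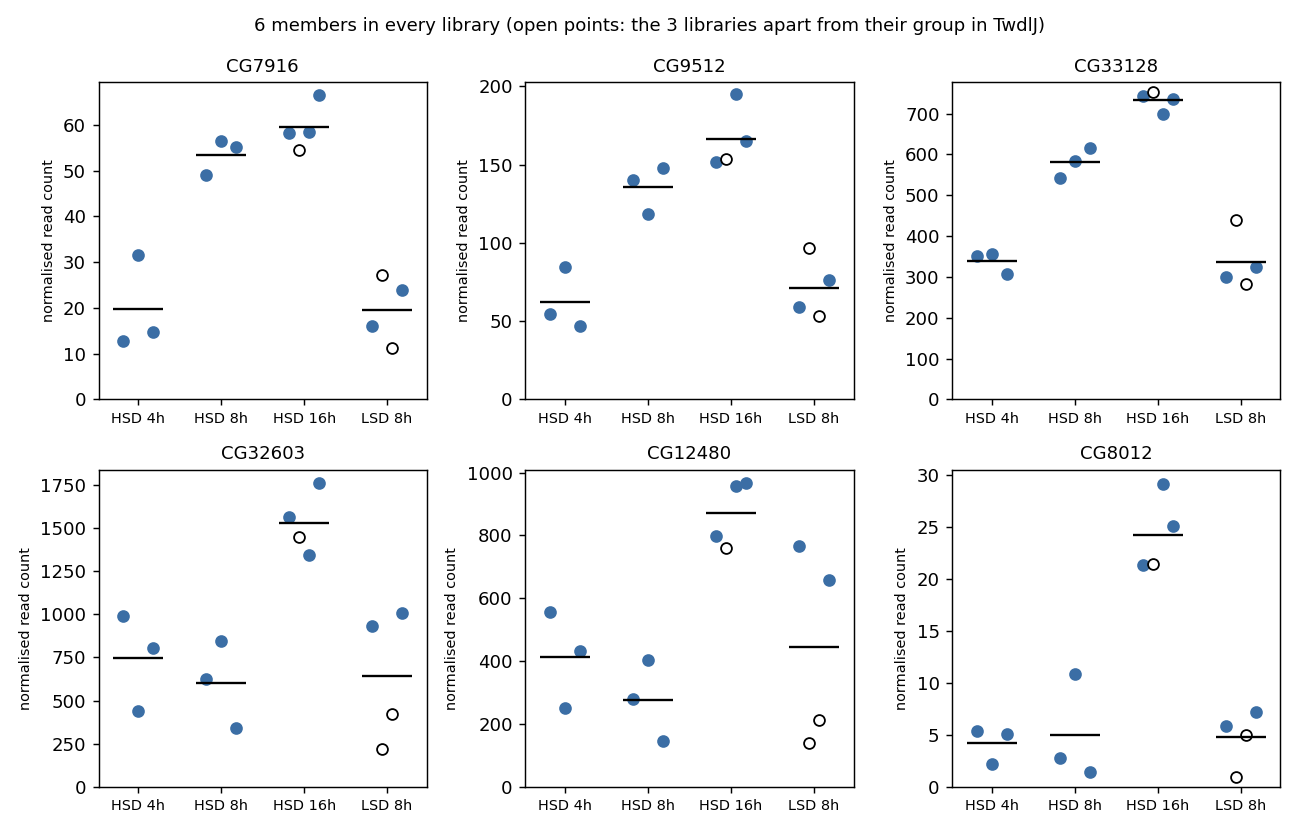
Normalised read counts of 6 genes in every library (points), with the group mean (bar), for HSD 4 h, HSD 8 h, HSD 16 h and LSD 8 h. Open points are LSD replicates 2 and 3 and HSD 16 h replicate 2, and each vertical axis starts at 0. CG7916, CG9512 and CG33128 are above LSD at 8 h in every library, while CG32603, CG12480 and CG8012 overlap LSD at 8 h and the open LSD points of CG32603 and CG12480 are the lowest of LSD.

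For 10 members the annotation or RefSeq holds a name or a synonym for a product. Of these, 7 rose at 8 h and 3 (Qsox2, Vajk2 and Vajk3) had no call, where 51.9% of the 77 members and 17.5% of all genes tested rose. They were picked for their annotation after the values were seen, so no theme is read from the count. Srr (CG8129), which converts L-serine to D-serine, had 10.8, 19.2 and 15.5 at HSD 4 h, 30.4, 34.6 and 29.0 at HSD 8 h, 31.6, 36.1, 34.4 and 35.4 at HSD 16 h, and 10.2, 22.7, 10.4 and 18.4 in LSD. The 8 h and 16 h libraries on HSD overlapped with each other and with no others, and the rise at 8 h was 1.08 (SE 0.25, adjusted p = 0.00589, limma). Pss (CG4825), which makes the membrane lipid phosphatidylserine, had 61.0, 80.1 and 85.9 at HSD 4 h, 124, 122 and 121 at HSD 8 h, 167, 166, 172 and 165 at HSD 16 h, and 86.5, 96.7, 73.6 and 81.0 in LSD. Its groups at 8 h and 16 h were each tight and separate, and the rise at 8 h was 0.54 (SE 0.11, adjusted p = 0.00214, limma). CG9265, listed by RefSeq under the synonym HSD17B11, a name used for a lipid-droplet dehydrogenase in mammals, rose by 0.95 at 8 h (SE 0.21, adjusted p = 0.00361, limma). At 16 h CG9265 had 43.0, 52.3, 80.6 and 50.4, so replicate 3 was high, against 22.97, 32.1, 31.1 and 24.5 in LSD. CG2680, which RefSeq also lists as Phos2680, sat just inside the threshold at 4 h, with a difference of 0.40, and rose by 0.59 at 8 h (SE 0.06, adjusted p = 3.11e-05, limma).

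The other 3 of the 7 are listed by RefSeq under dSLC5 synonyms, the family of sodium-coupled solute transporters. The gene kumpel (CG42235) had 71.2, 73.8 and 67.6 at HSD 4 h, 134, 126 and 131 at HSD 8 h, 218, 216, 232 and 211 at HSD 16 h, and 93.9, 96.4, 68.4 and 105 in LSD. It stepped up at each time on HSD with no overlap between times, and the rise against LSD at 8 h was 0.53 (SE 0.11, adjusted p = 0.00309, limma). CG10444 had 90.1, 59.7 and 78.4 at HSD 4 h, 104, 93.7 and 83.1 at HSD 8 h, 113, 113, 90.4 and 112 at HSD 16 h, and 72.6, 48.0, 46.3 and 75.0 in LSD. LSD replicates 2 and 3 were its lowest libraries, and the rise at 8 h of 0.65 (SE 0.19, adjusted p = 0.0173, limma) was lost without the 3 libraries that stood apart in TwdlJ. CG32669 had 15.0, 36.1 and 25.4 at HSD 4 h, 43.6, 39.5 and 40.4 at HSD 8 h, 42.6, 41.7, 44.3 and 42.5 at HSD 16 h, and 17.3, 36.9, 15.5 and 24.6 in LSD. It varied in LSD and at 4 h and was even at 8 h and 16 h, with a rise at 8 h of 0.87 (SE 0.29, adjusted p = 0.032, limma) that held in 19 of 27 alternatives.

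The plot of the differences at 8 h and 16 h sets the 77 genes side by side on both times. Of the 40 calls at 8 h, 27 held in each of the 27 alternatives of fit, scaling, tool and library. The 13 that did not were CG4363, CG15253, CG10910, CG42815, CG4465, CG9682, CG32512, CG32669, CG10562, CG10444, CG14441, CG8908 and CG34005. Of these, CG42815 held in the fewest, 16 of 27.

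**Figure D3:**
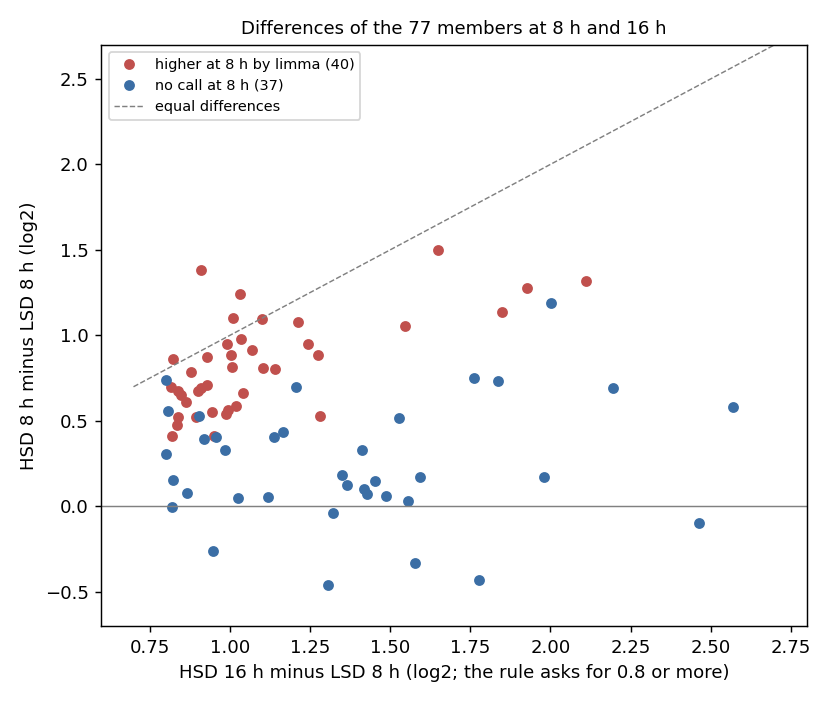
Each point is 1 of the 77 genes, with the log2 difference of HSD 16 h from LSD on the horizontal axis and that of HSD 8 h from LSD on the vertical axis. Red points (40) were higher at 8 h by limma and blue points (37) had no call, and the dashed line marks equal differences. Many red points lie near the line, and most blue points lie far below it.

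The 37 genes with no call at 8 h held most of the largest differences at 16 h. Their median was 1.35 at 16 h and 0.17 at 8 h, where they ranged from -0.46 to 1.19. CG8012, which codes for the shortest protein among the members (82 residues), had 5.396, 2.15 and 5.11 at HSD 4 h, 2.81, 10.9 and 1.41 at HSD 8 h, 21.4, 21.4, 29.1 and 25.1 at HSD 16 h, and 5.82, 0.955, 5.03 and 7.21 in LSD. HSD 8 h replicate 3 was above all LSD libraries and the other HSD 8 h libraries were below 3 of the 4, while all HSD 16 h libraries were separate. The difference from LSD was 2.46 at 16 h and -0.10 at 8 h (SE 0.62, adjusted p = 0.922, limma).

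CG11413 had the largest difference of all members at 16 h. It had 0.612, 1.08 and 0.901 at HSD 4 h, 0.975, 5.68 and 0.470 at HSD 8 h, 5.22, 6.51, 15.3 and 6.60 at HSD 16 h, and 1.13, 0.201, 0.795 and 1.94 in LSD. HSD 8 h replicate 3 lay within the range of HSD 16 h, and HSD 16 h replicate 3 was far above the rest of its group. The difference at 16 h was 2.57. CG14566 shared this shape, with 0.501, 1.12 and 0.781 at HSD 4 h, 1.95, 14.7 and 0.835 at HSD 8 h, 3.40, 3.76, 15.2 and 6.21 at HSD 16 h, and 0.508, 0.653, 0.530 and 5.21 in LSD, where replicate 4 overlapped HSD 16 h. CG11350 had 6.94, 45.4 and 5.74 at HSD 8 h, so replicate 3 was above all libraries at 16 h, which had 17.2, 15.5, 19.9 and 19.1, against 12.8, 2.31, 6.83 and 13.9 in LSD.

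CG15554, CG7778 and CG30457 were near LSD on average at 4 h, and high in HSD 8 h replicate 3 and in every library at 16 h. HSD 8 h replicates 2 and 4 were lower than replicate 3 and mostly near LSD. As exceptions, CG7778 in HSD 8 h replicate 4 (6.37) lay above every LSD library, and CG30457 in HSD 4 h replicate 3 (54.7) below every one. CG15554 had 3.50, 2.61 and 3.18 at HSD 4 h, 3.10, 8.95 and 2.97 at HSD 8 h, 13.7, 16.2, 22.5 and 15.5 at HSD 16 h, and 4.49, 1.86, 5.03 and 5.03 in LSD. CG7778 had 4.62, 5.34 and 3.91 at HSD 4 h, 4.59, 12.8 and 6.37 at HSD 8 h, 15.8, 17.1, 36.4 and 21.3 at HSD 16 h, and 3.59, 4.82, 4.18 and 4.66 in LSD. In CG7778 the LSD libraries were even, so the difference of 2.19 at 16 h did not rest on the low LSD replicates, and it was 2.36 without the 3 libraries. CG30457 had 168.1, 54.7 and 107 at HSD 4 h, 173, 393 and 149.8 at HSD 8 h, 386, 457, 461 and 448 at HSD 16 h, and 113, 89.2, 178 and 151 in LSD.

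CG17751 was a counterexample within the 37. It had 5.45, 11.97 and 9.67 at HSD 4 h, 13.1, 10.3 and 15.5 at HSD 8 h, 36.8, 37.0, 36.9 and 30.4 at HSD 16 h, and 8.05, 14.8, 13.3 and 10.2 in LSD. HSD 8 h replicate 3 was the lowest of its group, LSD replicates 2 and 3 were the highest of theirs, and all HSD 16 h libraries lay far above any other. The difference at 16 h was 1.59, and 0.17 at 8 h (SE 0.25, adjusted p = 0.638, limma).

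CG32603, CG12480 and CG7465, which had the 3 highest HSD 16 h means of all members, had wide LSD groups. CG32603 had 992, 440.5 and 807 at HSD 4 h, 623, 848 and 342 at HSD 8 h, 1566, 1447, 1346 and 1761 at HSD 16 h, and 932, 219.5, 419.5 and 1008 in LSD. LSD replicates 1 and 4 were higher than every HSD 8 h library, LSD replicate 2 was lower than all 3 and LSD replicate 3 lower than 2 of them. CG12480 had 557, 249.9 and 432 at HSD 4 h, 280.2, 405 and 145 at HSD 8 h, 799, 759, 959 and 968 at HSD 16 h, and 765, 139, 212 and 659.7 in LSD, where replicate 1 was above the lowest library at 16 h. CG7465 had 1525, 762 and 1335 at HSD 4 h, 1022, 1480.0 and 700.3 at HSD 8 h, 2206, 2351, 2230.0 and 2668 at HSD 16 h, and 1687, 537, 1249 and 1971 in LSD. The groups at 16 h did not overlap with any other in CG32603 or CG7465, and LSD spread over more than the distance between its mean and the lowest library at 16 h in all 3 genes.

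Qsox2 (CG17843), an enzyme that forms disulfide bonds in secreted proteins, was also in this group. It had 35.9, 25.5 and 32.9 at HSD 4 h, 28.4, 37.4 and 17.0 at HSD 8 h, 59.5, 63.5, 80.0 and 63.7 at HSD 16 h, and 39.5, 9.95, 22.5 and 40.0 in LSD. LSD replicates 2 and 3 were low, and the difference of 1.42 at 16 h was 0.75 without the 3 libraries. The cuticle genes Vajk2 (CG16885) and Vajk3 (CG16884) lacked that LSD pattern. Vajk2 had 299, 164 and 264 at HSD 4 h, 200.5, 396 and 314 at HSD 8 h, 432, 441, 652.5 and 516 at HSD 16 h, and 266, 323, 240.4 and 280.3 in LSD. HSD 16 h replicate 3 was the highest library of both genes, and their differences at 16 h were 0.87 for Vajk2 and 0.82 for Vajk3, or 0.94 and 1.02 without the 3 libraries.

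Differences between libraries of one group do not enter the rule, and they are described here for the same split of the members. In 24 of the 37 genes with no call at 8 h, LSD replicates 2 and 3 were both below replicates 1 and 4, against 2 of the 40 genes that rose and 17.0% of the 10037 other genes tested. HSD 8 h replicate 3 was the highest of its group in 34 of the 37 and in 11 of the 40, against 32.8% of the other genes. HSD 4 h replicate 3 was the lowest of its group in 29 of the 37 and in 1 of the 40, against 37.5% of the other genes, and the highest in 5 of the 37 and 28 of the 40, against 32.6% of the other genes. The SD of log2 values within LSD had a median of 0.72 over the 37 and of 0.33 over the 40, and within HSD 16 h of 0.18 and 0.11. A gene with a wide LSD or HSD 8 h group is less likely to be called at 8 h, so the counts for LSD and for HSD 8 h replicate 3 are partly set by the split itself. The order of the HSD 4 h libraries bears on no call against LSD except through the shared estimate of spread.

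**Figure D4:**
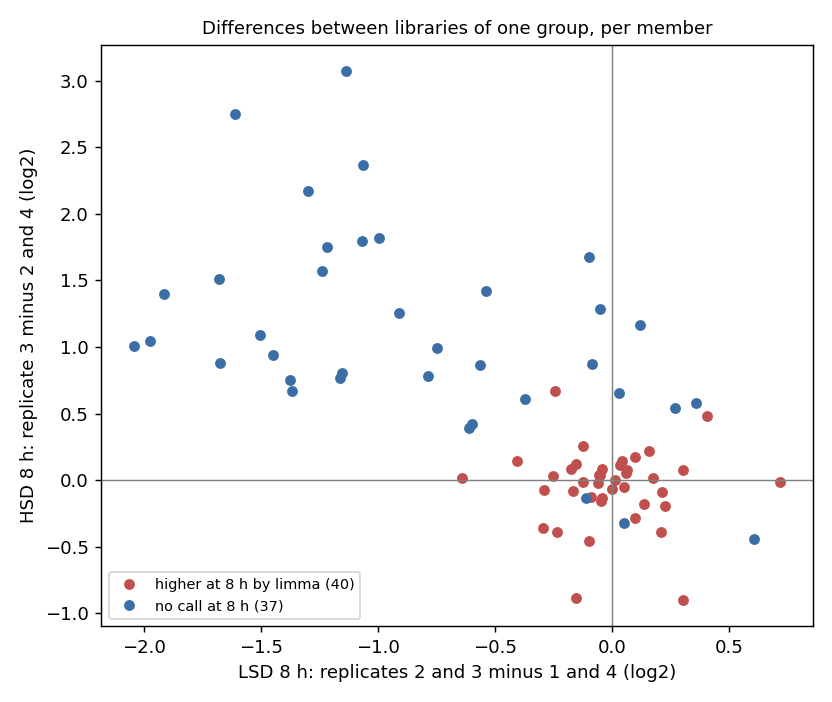
Each point is 1 of the 77 genes. The horizontal axis is the log2 difference of LSD replicates 2 and 3 from LSD replicates 1 and 4, and the vertical axis that of HSD 8 h replicate 3 from HSD 8 h replicates 2 and 4. The 40 genes that rose at 8 h (red) lie around 0 on both axes, with medians of -0.04 and -0.01, and the 37 others (blue) lie to the upper left, with medians of -0.995 and 0.995.

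The cuticle gene TwdlO, which was picked as a comparator after its values were known and is not a member, shared much of that order. Its normalised read counts were 61.9, 36.9 and 16.6 at HSD 4 h, 0.918, 23.03 and 2.87 at HSD 8 h, 38.3, 31.3, 74.2 and 54.3 at HSD 16 h, and 14.6, 1.26, 4.50 and 25.98 in LSD. LSD replicates 2 and 3 were its lowest in LSD, HSD 8 h replicate 3 was its highest at 8 h, and HSD 16 h replicate 3 its highest at 16 h, while at 4 h replicate 4 and not replicate 3 was its lowest. TwdlJ ran the other way in LSD and at 8 h, where replicate 3 was its lowest. What sets the order of the libraries was not tested.

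Without LSD replicates 2 and 3 and HSD 16 h replicate 2, the median difference at 16 h was 0.89 for the 37 genes and 1.005 for the 40 genes. It fell short of 0.8 in 18 of the 37 and in 8 of the 40. Applied to the remaining 11 libraries, the rule chose 70 genes, of which 38 were among the 77, so 39 members were lost and 32 genes were added. Some of the lost members stayed above 0.8 at 16 h and failed the limit at 4 h. Examples are CG11413 (2.11 at 16 h, -0.56 at 4 h) and CG15155 (2.28 at 16 h, 0.64 at 4 h). The median difference of the 77 at 4 h was -0.08 without the 3 libraries and 0.11 with all. Nearness to LSD at 4 h thus also varied with the libraries used. Of the 38 kept, 26 came from the 40 genes and 12 from the 37. CG12480 was 1.31 above LSD at 16 h with all libraries and 0.35 without the 3. CG13722 was 1.32 with all and 0.35 without, CG3502 0.98 with all and 0.30 without, and CG7465 0.95 with all and 0.37 without. With LSD replicates 2 and 3 as the only control, the median difference at 16 h was 1.85 for the 37 and 1.02 for the 40. LSD replicates 2 and 3 differed from 1 and 4 by a median of -0.995 in the 37 and -0.04 in the 40. Leaving them out therefore had to lower the differences of the 37 more, and using them alone had to raise them. These medians are a description and no test.

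**Figure D5:**
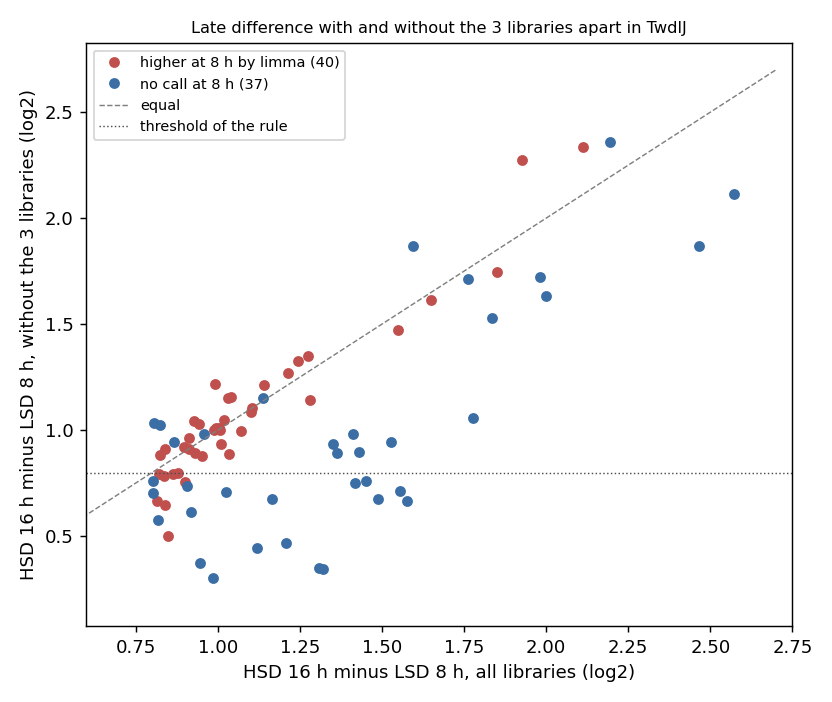
Each point is 1 of the 77 genes, with the log2 difference of HSD 16 h from LSD over all libraries on the horizontal axis and over the 11 libraries left without LSD replicates 2 and 3 and HSD 16 h replicate 2 on the vertical axis. The dashed line marks equal values and the dotted line the threshold of 0.8. Red points (40 genes that rose at 8 h) lie near the dashed line, and 18 of the 37 blue points lie below the dotted line.

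Without the 3 libraries a pair of genes also fell at 8 h, a setting that leaves LSD libraries low in TwdlJ against HSD 8 h libraries high in it. CG12480 stood at -1.48 (adjusted p = 0.0239, limma) and CG17974 at -1.18 (adjusted p = 0.0258, limma), against differences of -0.46 and -0.43 with all libraries, which did not pass. CG17974 had 16.6, 9.44 and 10.9 at HSD 4 h, 5.34, 11.7 and 5.17 at HSD 8 h, 30.3, 31.3, 40.2 and 33.6 at HSD 16 h, and 17.97, 2.46, 11.3 and 14.8 in LSD. LSD replicate 2 was its lowest library, and without that library alone the fall of CG17974 at 8 h also passed (-1.02, adjusted p = 0.0176, limma).

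Several members were neighbours. With gaps of at most 20 kb, a distance chosen after the positions were seen, 18 of the 76 members with a position in the Ensembl annotation of BDGP6.54 fell into 8 groups. The annotation's build may not be the one the authors counted on. The largest group lay on chromosome 3L from 4465105 to 4490963 and held CG32241, CG7465, CG11350 and CG13722 among 7 protein-coding genes. All 4 had no call at 8 h and were low in LSD replicates 2 and 3. CG32241 had 172, 68.7 and 130.2 at HSD 4 h, 80.5, 173 and 52.9 at HSD 8 h, 303, 309.8, 390 and 363 at HSD 16 h, and 218, 39.9, 84.9 and 223 in LSD. The other 3 genes in that span did not share the difference at 16 h, with CG11349 at -1.18, CG32249 at -0.24 and CG32248 at 0.57.

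On chromosome X, CG12480 and CG32603 lay within 16.2 kb, from 14169592 to 14185807, with CG1368, CG11581 and CG11584 between them. CG1368 was 0.66 above LSD at 16 h, below the threshold. CG11581 and CG11584 were on the opposite side, with means of 106.9 and 154.5 at HSD 16 h, against 437 and 457 in LSD, a difference of -1.99 and -1.52. Genes of 1 span thus differed from LSD in opposite directions at 16 h.

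CG4363 and CG4377 lay within 2.1 kb on chromosome 2R and moved alike. CG4363 had 5.84, 7.91 and 3.06 at HSD 4 h, 15.3, 7.92 and 14.8 at HSD 8 h, 21.3, 21.5, 15.7 and 23.3 at HSD 16 h, and 4.69, 8.09, 2.97 and 6.60 in LSD. CG4377 had 15.2, 18.5 and 9.25 at HSD 4 h, 33.0, 23.4 and 31.7 at HSD 8 h, 40.0, 43.2, 36.9 and 44.6 at HSD 16 h, and 12.6, 18.9, 9.22 and 16.1 in LSD. HSD 8 h replicate 3 was the lowest of its group in both, opposite to most of the 37 genes, and it overlapped LSD in CG4363 alone. The rise at 8 h was 1.14 (SE 0.34, adjusted p = 0.0222, limma) for CG4363 and 1.06 (SE 0.24, adjusted p = 0.00541, limma) for CG4377, and the call of CG4363 was lost without the 3 libraries.

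The remaining groups were the Vajk2 and Vajk3 pair on 2L, CG5770 with CG34005 and CG8908 with CG10444 on 2R, CG17751 with CG16727 on 3R, and CG32564 with CG10598 on X. In the first of the 2R pairs both genes rose at 8 h, by 0.81 for CG5770 (SE 0.18, adjusted p = 0.00385) and 0.70 for CG34005 (SE 0.22, adjusted p = 0.0286) by limma. CG8908 rose by 0.47 at 8 h (SE 0.13, adjusted p = 0.013, limma). CG16727 had a difference of 0.41 at 8 h (SE 0.19, adjusted p = 0.114, limma) and 0.96 at 16 h. Between CG17751 and CG16727 lay CG17752, which was 0.75 above LSD at 16 h and so missed the threshold. CG32564 had 598, 593, 682 and 671 at HSD 16 h and 373, 110.5, 178 and 393 in LSD, again with replicates 2 and 3 low.

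The members were spread over the genome, with 24 on 3R, 16 on 3L, 14 on 2R, 12 on X and 10 on 2L, and 1 (CG4825) was not placed. The share on 3R was 31.2%, against 25.4% of the CG-numbered genes tested. The 76 members annotated as protein-coding had a median length of 325.5 residues, against 396 in the other CG-numbered genes. The median was 405 residues in the 40 genes and 270 residues in the 37. Proteins under 200 residues made up 23.7% of the members and 18.3% of the other CG-numbered genes, and genes of a single exon 17.1% and 12.5%. For 30 members the annotation holds another gene or a transposable element that overlaps them, on the same strand for 7 and on the other strand for 27. On the same strand, CG32512 and CG17839 overlap a transposable element alone. The libraries were stranded, but no source used here gives the strand setting of the counting, so the values of these 30 may hold reads of the overlapping entry. CG12480, CG11413, CG9512, Srr and CG7916 are among them.

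The lists of known genes, which were written with earlier results known, moved in different ways over the same times. The cuticle and molt list had 3 of 31 genes higher and 16 lower at HSD 16 h by limma, with a median of -1.60, against 2 higher and 0 lower at 8 h with a median of 0.11. The ecdysone response list holds genes tied to the hormone that times the molt, not its targets alone. It had 3 of 21 higher and 8 lower at 16 h with a median of -0.11. At 8 h it had 1 higher (shd) and 1 lower (br) with a median of 0.02. The peritrophic matrix list, for the chitin lining of the gut, had 3 of 15 higher and 6 lower at 16 h with a median of -0.50, and 2 higher and 0 lower at 8 h with a median of -0.01. The midgut digestion list had 30 of 46 higher and 2 lower at 8 h with a median of 1.23, and 26 higher and 6 lower at 16 h with a median of 0.96. The list of sugar-responsive regulators had 12 of 14 higher and 0 lower at 4 h with a median of 1.58, 13 higher and 0 lower at 8 h with a median of 1.73, and 12 higher and 0 lower at 16 h with a median of 1.82. Over all genes tested, 12.8% were called higher at 4 h, and 19.4% higher and 20.4% lower at 16 h. Those regulators were thus already near their 16 h level at 4 h, at which the 77 genes were by rule near LSD.

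Summed over the midgut digestion list, the libraries had between 6669 and 14560 at HSD 4 h, 15820 to 19990 at HSD 8 h, 16590 to 20830 at HSD 16 h, and 6083 to 12500 in LSD. The sum was free of overlap between HSD at 8 h or 16 h and LSD. Summed over the cuticle and molt list, they had 4687 to 6149 at HSD 4 h, 5481 to 9201 at HSD 8 h, 2077 to 3359 at HSD 16 h, and 5195 to 9806 in LSD. The part of either list in the values of the members was not tested.

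Another 58 genes and RNAs whose symbol is not a CG number met the same thresholds, so the pattern is not limited to CG-numbered genes. Most have a name, while CR13656 and CR45479 carry a number of another kind. They included the maltase Mal-A6, the trypsins alphaTry and betaTry, the aldehyde dehydrogenase Aldh, and the cuticle genes Lcp4 and Cpr12A, all picked after their values were seen. Mal-A6 had means of 40.6 ± 19.98 at HSD 4 h, 127 ± 28.3 at HSD 8 h, 269 ± 46.6 at HSD 16 h and 41.5 ± 19.1 in LSD (SD, n = 3, 3, 4 and 4), with HSD 8 h well above LSD as in the 40 genes. Lcp4 had means of 26.2 ± 4.5 at HSD 4 h, 22.3 ± 11.6 at HSD 8 h, 66.2 ± 10.7 at HSD 16 h and 22.9 ± 3.3 in LSD (SD, n = 3, 3, 4 and 4), with HSD 8 h near LSD as in many of the 37.

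At the thresholds on 16 h and 4 h, values ran close on both sides. CG14598 and CG7567 were just inside at 16 h, at 0.80 each, and CG15021 (0.80, 0.798 before rounding) and CG9008 (0.79) just outside. At 4 h CG2680 (0.40, 0.396 before rounding) and CG32603 (0.38) were inside, and CG31103 (0.40, 0.403 before rounding) and CG8562 (0.40, 0.403 before rounding) outside. CG7992 (0.47) and CG6574 (0.21) came nearest to the limit on HSD 8 h minus HSD 16 h, with none outside. By level, CG34005 (5.59) and CG14223 (7.04) were the lowest inside, and CG34454 (4.64) and CG14275 (4.14) the highest outside. The widest ranges within HSD 16 h were in CG14566, CG11413, CG11131, CG7778 and CG3502. CG11131 had 41.1, 48.9, 102 and 54.5 at HSD 16 h and 30.0, 11, 22.3 and 33.6 in LSD, and CG3502 had 11.9, 9.63, 5.83 and 12.9 at HSD 16 h and 7.62, 2.86, 2.54 and 7.87 in LSD.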

How the data were processed

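RNA depleted of ribosomal RNA was sequenced from stranded libraries as 75 bp single-end reads, with 2 technical runs of each sample, per the labels' protocols. Per the submitters' processing notes, the tools were TopHat2 2.1.0 with Trimmomatic, HTSeq and limma; the genome build and the strand setting of counting were not given in any source used. The signal values deposited by the authors are counts divided by an effective library size: 100% were whole multiples of 1 read, to within 0.01 read, and column sums run from 910679 to 1063358, so they were treated as a scaled signal and not as CPM. Floors of 3 reads cover counting error only. Titles gave the groups and the replicate numbers.

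Values were tested as log2(value + 0.5) with limma 3.58.1 in R 4.3.3, in the 10114 genes that reached 1 in 3 libraries or more, among them all 77 members. All 4 groups entered 1 fit (10 residual degrees of freedom, trend of variance on mean, two-sided p, Benjamini-Hochberg over all genes). The pseudocount understates the change of low genes. Contrasts that the rule used are described with no test for the members; for gene lists that are not members, calls in them are counted. EdgeR 4.0.16 on the recovered reads called 1737 genes higher and 1715 lower for HSD 8 h against LSD, and 439 higher and 439 lower for HSD 8 h against HSD 4 h; DESeq2 1.42.0 was also run. Other alternatives were the pseudocount, the filter, median-of-ratios and quantile scaling, the groups in the fit, no trend, a replicate block, leaving out each library, and leaving out the 3 libraries apart in TwdlJ. The control of LSD replicates 2 and 3 alone was chosen after seeing the data.

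The members, gene lists, rule for naming and tests were chosen with earlier results of these data known. The rule named the 12 members with the largest difference at 16 h, the 10 with the highest HSD 16 h mean, the 5 with the largest and the 5 with the smallest difference at 8 h, those nearest each threshold, neighbours, and the 5 with the widest range within HSD 16 h (39 members). Members named for an annotated role, as exceptions in a count, or in lists of lost calls, and CG9512, were chosen after their values were seen. Positions come from Ensembl's annotation of BDGP6.54 (9990 of 10128 gene identifiers matched), and synonyms from RefSeq (Release 6). Sequences were not used here.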

Additional observations from a re-analysis of the deposited data

Results flagged for a closer look

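In each named member, HSD 16 h and LSD were searched for a library far from the other 3 of its group, by Dixon's test at 95%. This flagged 6 of 78 groups tested. Chance flags about 1 in 20 groups that are independent and not selected. Here 5 members were named for a wide range within HSD 16 h, and all genes share the same libraries. The count of flags is therefore not compared with that rate. CG11413 had 15.3 in HSD 16 h replicate 3, and 5.22 to 6.60 in the others. CG10444 had 90.4 in HSD 16 h replicate 3, and 112 to 113 in the others. CG17751 had 30.4 in HSD 16 h replicate 4, and 36.8 to 37.0 in the others. CG14566 had 5.21 in LSD replicate 4, and 0.508 to 0.653 in the others, so 1 library gave most of its LSD mean. CG15554 had 1.86 in LSD replicate 2, and 4.49 to 5.03 in the others. CG10910 had 256 in LSD replicate 2, and 166 to 170.0 in the others. LSD replicate 2, 1 of the 3 libraries that stood apart in TwdlJ, was thus low in CG15554 and high in CG10910.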

How the results depend on the processing

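The rule chose 70 to 91 genes when 1 library was left out, lowest without LSD replicate 4 and highest without HSD 4 h replicate 3, and 55 to 87 under the other alternatives. The 55, with LSD replicates 2 and 3 as the only control, shared 43 genes with the 77. For HSD 8 h against LSD, 32 to 41 members were higher with 1 library left out and 32 to 44 otherwise; 0 to 1 were lower with 1 library left out (1, CG17974, without LSD replicate 2), and 2 were lower without the 3 libraries apart in TwdlJ. For HSD 8 h against HSD 4 h, 7 to 28 were higher with 1 library left out (7 without HSD 4 h replicate 4) and 0 were lower. Samples shared replicate numbers, and same-numbered pairs correlated between -0.46 and 0.35 in their deviations, with 6 of 18 over 0.1. Pairs of unlike number were not compared, so these values cannot decide whether the numbers pair the samples. With a replicate block, 35 members were higher against LSD and 5 against HSD 4 h. Over all genes the block gave 1467 higher and 1380 lower against LSD, and 97 higher and 62 lower against HSD 4 h, where the main values were 476 and 455. DESeq2 gave 675 and 455 there. Quantile normalization gave 1500 higher and 1962 lower against LSD, where the main values were 1772 and 1707, and 390 higher and 637 lower against HSD 4 h. The cause of these moves was not tested. No called difference of a named member changed sign under the alternatives run, though uncalled differences near 0 at 8 h did, such as that of CG15554. Over the named members at 8 h, calls were lost in 9 and gained in 8 cases with 1 library left out, and lost in 7 and gained in 9 cases under the other alternatives. Depth limits the lowest values, such as CG11413 in LSD replicate 2 (0.201), which lies close to the 0.117 to 0.182 that 3 reads are worth.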
